A study of Homo sapiens with 6 samples.

Results

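Genes of sterol and fatty acid synthesis, with those of the transcription factors SREBP-1 and SREBP-2 and their regulators, were examined across 6 expression arrays. The arrays were of NCI-H929, an established line of human myeloma cells. The list was fixed by gene name and held 30 genes. It took every probe set that the platform annotation gives to one of them alone, 53 of the 22277 probe sets deposited, and these covered 27 genes. CYP51A1 and FADS1 had only probe sets shared with another symbol, and FDFT1 matched no probe set used here, so these 3 were not analysed here. All 27 genes were among the 7936 that passed the filter on low signal, out of 11963 with a probe set of a single symbol.

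Cells grown with fetal bovine serum were electroporated with small interfering RNA (siRNA), and total RNA was taken 24 h later. The siRNA was a non-targeting scramble control, one against RRM1 (siRRM1) or one against RRM2 (siRRM2), with 2 arrays in each group. RRM1 and RRM2 encode the large and small subunits of ribonucleotide reductase. The study asked how losing either subunit changes expression. The labels do not say whether a group's arrays stand for separate cultures, so the p-values below measure only the spread between these samples, which may be technical. All groups are 1 cell line that received siRNA by electroporation, and untreated cells were not analysed here.

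Cells build cholesterol from acetyl-CoA through the mevalonate pathway, then squalene and lanosterol, then a series of reductions, demethylations and isomerizations. When sterols in the endoplasmic reticulum run low, the protein SCAP carries SREBP to the Golgi for cleavage, and the released fragment switches on sterol and lipid synthesis genes. INSIG1 and INSIG2 hold SCAP back when sterols are plentiful, and INSIG1 is itself an SREBP target. Plasma cells, the cell type of myeloma, carry a large secretory endoplasmic reticulum built of such lipids.

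Values are log2 signals as the authors deposited them, already on a common scale, and a difference of 1 is a doubling. Array medians lay between 6.11 and 6.16, and arrays of a group correlated at r = 0.993 to 0.996 across genes, which are not independent replicates. Arrays of different groups correlated at r = 0.971 to 0.995. The first siRRM1 array correlated at 0.9938 and 0.9949 with the siRRM2 arrays, above its 0.9934 with the second siRRM1 array. The targeted transcripts were lower in their own groups. For RRM1, probe set 201477_s_at read 11.06 and 11.11 in scramble and 8.93 and 7.99 in siRRM1. For RRM2, 209773_s_at read 12.51 and 12.59 in scramble and 9.59 and 10.12 in siRRM2. All 8 plasma cell markers passed the filter. Their mean was 11.58 and 11.52 in scramble, 11.32 and 11.19 in siRRM1, and 11.60 and 11.50 in siRRM2. In siRRM1 all 8 were below both scramble arrays, where 30.9% of all genes tested were lower without overlap. Of the 8, 1, IRF4, fell past the threshold (-0.63, limma adjusted p = 0.0449), where 7.33% of all genes were called lower. The part of these marker differences in the siRRM1 values below was not tested. Of the other marker lists, 1 of 4 T cell, 1 of 3 myeloid, 2 of 5 epithelial and 1 of 5 stromal markers passed, with list means between 4.30 and 5.20 on every array. The myeloid mean was highest on the siRRM1 arrays, 4.75 and 5.08 against 4.30 and 4.42 in scramble. Most of this came from CSF1R, singled out after its values were seen. CSF1R read 5.56 and 5.84 in scramble and 6.73 and 7.68 in siRRM1 (2.83-fold, limma adjusted p = 0.0154). The defining myeloid markers CD14 and LYZ did not pass the filter, and CD14 stayed between 4.23 and 4.39 on all 6 arrays. LYZ, lower still, read 3.01 and 3.11 in scramble and 3.26 and 3.18 in siRRM1. As in any bulk sample, fewer cells of a type and less RNA per cell cannot be told apart. The 3′ minus 5′ gap of the control transcript ACTB, a measure of RNA quality, was 0.33 on the second siRRM1 array, 0.34 on the first scramble array and 0.03 to 0.15 on the rest.

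Promoter windows of 300 bases (250 before and 50 after the transcription start, RefSeq, GRCh38.p14) were given for 26 of the 30 listed genes. They were searched on both strands for 4 motifs, none of which contains another. The pentamer CCAAT, bound by the SREBP partner NF-Y, was in 17 of 26 windows (65.4%), against 34.6% of all 35116 windows. A strict sterol regulatory element, TCACNCCAC, was in 1 of 26 (3.85%, against 1.13% of all), that of SREBF2. The E-box CACGTG was in 3 (11.5%, against 7.26%) and the cyclic AMP element TGACGTCA in 1 (3.85%, against 1.85%). The windows of HMGCS1 and INSIG2, described below, held none of these letters, which says nothing about the factors themselves. The 250 upstream bases of 3 genes are shown. MSMO1 and TM7SF2 passed the limma threshold in siRRM1 and held CCAAT, and SREBF2 alone held the sterol element. Capitals mark CCAAT or its reverse complement and, in SREBF2, also the sterol element. A match is a string of letters and not a shown binding site. MSMO1 lies at chr4:165327419-165327668 (+ strand), TM7SF2 at chr11:65111622-65111871 (+) and SREBF2 at chr22:41832855-41833104 (+).
MSMO1: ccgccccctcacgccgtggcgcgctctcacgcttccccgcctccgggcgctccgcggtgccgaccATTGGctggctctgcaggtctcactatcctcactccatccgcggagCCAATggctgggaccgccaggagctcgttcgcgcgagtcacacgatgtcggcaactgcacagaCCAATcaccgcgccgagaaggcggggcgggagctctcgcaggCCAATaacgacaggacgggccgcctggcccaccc
TM7SF2: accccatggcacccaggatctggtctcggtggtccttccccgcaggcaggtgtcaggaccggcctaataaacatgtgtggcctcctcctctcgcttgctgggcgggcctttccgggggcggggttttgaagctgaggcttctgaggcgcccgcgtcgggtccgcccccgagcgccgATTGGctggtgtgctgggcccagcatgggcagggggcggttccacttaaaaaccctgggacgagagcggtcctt
SREBF2: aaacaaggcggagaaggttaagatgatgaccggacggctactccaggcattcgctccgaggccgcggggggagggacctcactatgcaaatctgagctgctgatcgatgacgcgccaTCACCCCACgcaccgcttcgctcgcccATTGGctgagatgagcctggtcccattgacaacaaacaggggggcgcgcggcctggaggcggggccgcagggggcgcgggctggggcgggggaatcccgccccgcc

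In siRRM1 against scramble 3 of the 27 genes fell and 1 rose. HMGCS1, which makes the precursor of mevalonate, fell by 0.54 on the log2 scale (1.46-fold, SE 0.09). INSIG2, the sterol-dependent brake on SREBP, fell by 0.72 (1.65-fold, SE 0.19). MSMO1, the methyl oxidase that acts on sterols after lanosterol, fell by 0.48 (1.39-fold, SE 0.10). TM7SF2, a sterol reductase of the same stretch, rose by 0.38 (1.30-fold, SE 0.10). The limma adjusted p-values were 0.00809, 0.0427, 0.0230 and 0.0418. These 4 genes are 14.8% of the 27, and 15.5% of all 7936 genes were called in that comparison (8.22% higher and 7.33% lower), so the share called was near the background. The median log2 difference of the 27 genes was -0.06, beside -0.01 for all genes tested, and 18 of the 27 were below 0. With each array centred on its median, all genes split into 572 higher and 818 lower in place of 652 and 582, and the genes of the list into 0 higher and 4 lower.

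In siRRM2 against scramble limma called 0 of the 27 genes, where 2.52% of all genes were called (2.00% higher and 0.517% lower). Unadjusted p-values under 0.05 numbered 9 there (3 above scramble, 6 below), or 33.3% of the list beside 20.4% of all genes. In siRRM1 the same unadjusted count was 9, also 3 and 6, beside 32.6% of all genes. The median log2 difference in siRRM2 was -0.02, beside -0.003 for all genes. Between the knockdowns limma called 0 of the 27, where 0.164% of all genes were called (0.126% higher and 0.0378% lower). Of the 27, 2, MSMO1 and FASN, had an unadjusted p under 0.05, beside 10% of all genes. Both comparisons with scramble use the same 2 control arrays, so their values are set side by side and not correlated.

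**Figure D1:**
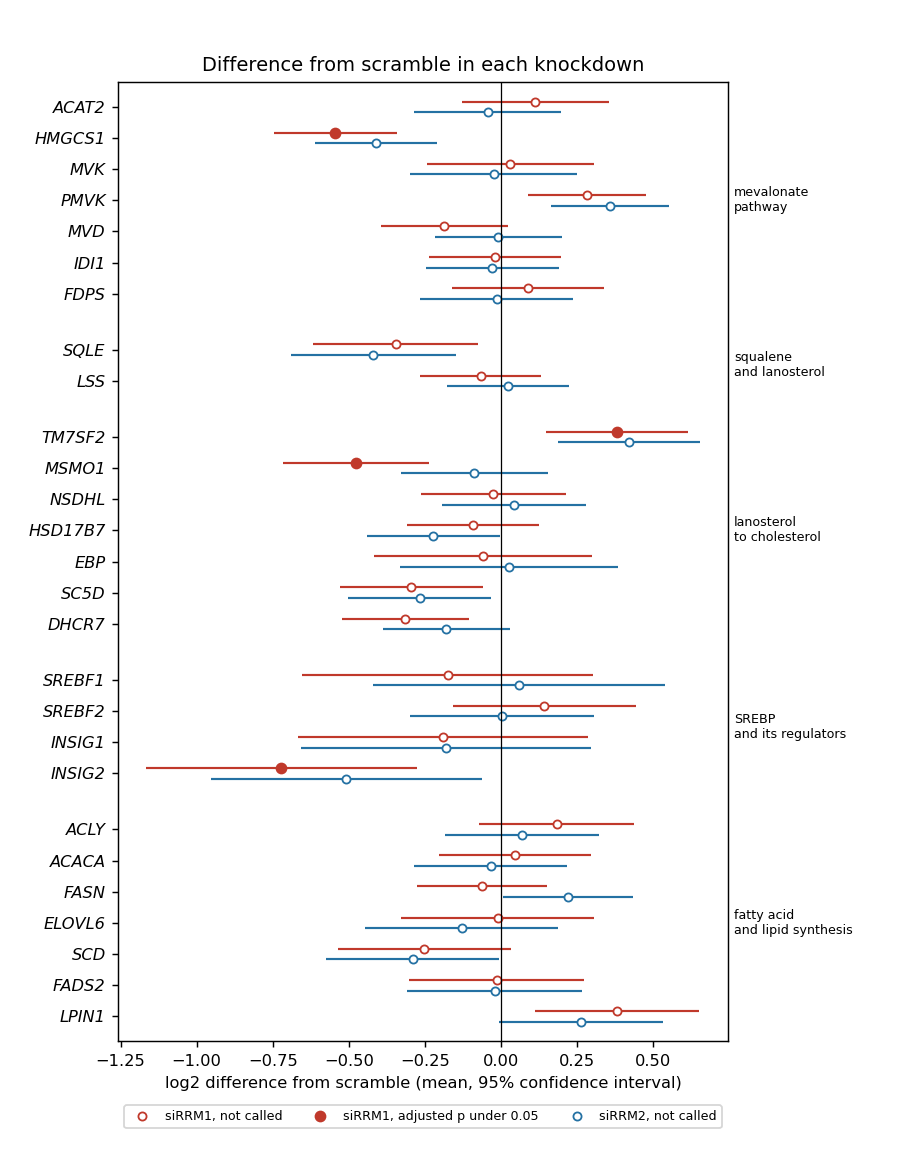
Log2 difference from scramble (horizontal axis) with its 95% confidence interval for each of the 27 genes, siRRM1 in red and siRRM2 in blue, grouped by role. Filled points passed the limma threshold: HMGCS1, MSMO1 and INSIG2 lie below 0 and TM7SF2 above it, all in siRRM1, and no siRRM2 point is filled.

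The first committed steps run from acetyl-CoA to farnesyl diphosphate. HMGCS1 (probe set 221750_at, Entrez 3157) read 8.41 and 8.48 in scramble, 7.89 and 7.91 in siRRM1, and 8.01 and 8.06 in siRRM2. The 3 groups did not overlap, with scramble highest and siRRM1 lowest. In siRRM2 the difference was -0.41 (SE 0.09, limma adjusted p = 0.0560), and between the knockdowns it was -0.13 (95% interval -0.33 to 0.07, adjusted p = 0.665). The call in siRRM1 held under all 15 alternatives, with log2 values from -0.63 to -0.51 and adjusted p from 0.00342 to 0.0442. In siRRM2 it passed under 3 of 15, with adjusted p from 0.0267 to 0.313. The other HMGCS1 probe set, 205822_s_at, gave -0.71 and -0.64 with adjusted p = 0.131 and 0.266 over 11800 probe sets. On that probe set the second siRRM1 array stood at 5.79 and the first at 6.74, against 7.09 and 6.86 in scramble, and the part of RNA quality in that gap was not tested.

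PMVK, the phosphomevalonate kinase, read 10.89 and 10.90 in scramble, 11.20 and 11.16 in siRRM1, and 11.27 and 11.24 in siRRM2. Both knockdowns lay above both scramble arrays, by 0.28 (SE 0.08, limma adjusted p = 0.0589) and 0.36 (SE 0.08, adjusted p = 0.0716), neither past the threshold. These intervals were 0.09 to 0.47 and 0.16 to 0.55. The other 5 genes of this stretch had log2 differences between -0.19 and 0.11 in siRRM1 and between -0.04 and -0.01 in siRRM2. They were ACAT2, the thiolase that starts the pathway, MVK and MVD, which phosphorylate and decarboxylate its intermediates, IDI1, the isopentenyl diphosphate isomerase, and FDPS, the farnesyl diphosphate synthase. MVD had the lowest siRRM1 value, 6.22 and 6.21 against 6.37 and 6.43 in scramble (-0.19, SE 0.09, adjusted p = 0.194). For FDPS the interval ran from -0.16 to 0.34 in siRRM1 and from -0.27 to 0.24 in siRRM2, so an increase beyond 1.27-fold lies outside the siRRM1 interval.

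Squalene epoxidase, SQLE, makes the first oxygenated sterol precursor and is a rate-limiting step. It read 8.99 and 8.94 in scramble, 8.61 and 8.62 in siRRM1, and 8.39 and 8.70 in siRRM2. All 4 knockdown arrays were below both scramble arrays, with differences of -0.35 (SE 0.12, limma adjusted p = 0.0831) and -0.42 (SE 0.12, adjusted p = 0.108). Its other probe sets had log2 differences of -0.51 and -0.11 in siRRM1 and of -0.33 and -0.08 in siRRM2. LSS, which closes squalene epoxide into lanosterol, differed from scramble by -0.07 and 0.02.

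**Figure D2:**
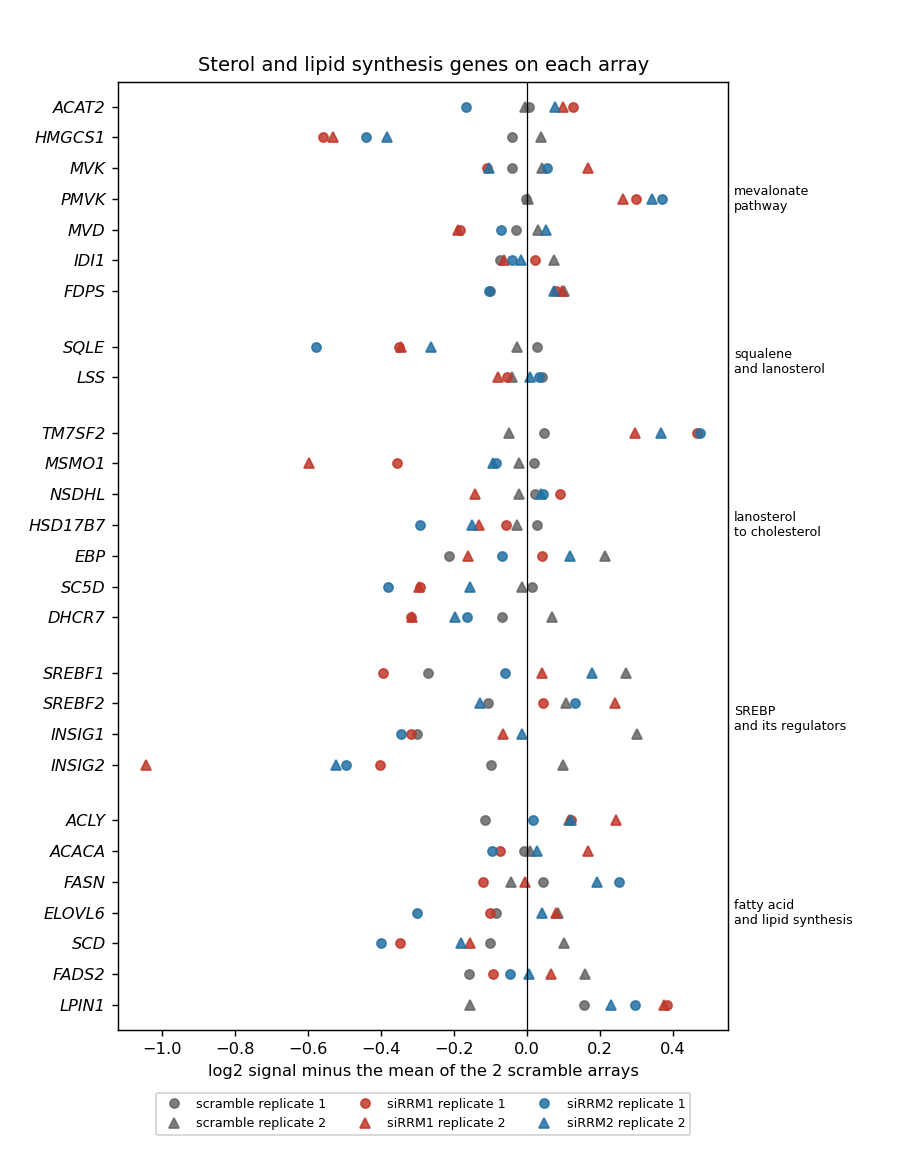
Each array's log2 signal minus the mean of the 2 scramble arrays (horizontal axis) for the 27 genes, with circles for replicate 1 and triangles for replicate 2. HMGCS1 and SQLE have all 4 knockdown arrays left of 0, PMVK, TM7SF2 and LPIN1 have them right of 0, and the second siRRM1 array is the lowest point for INSIG2.

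From lanosterol to cholesterol, 6 of 7 genes measured were below scramble in siRRM1 and 4 of 7 in siRRM2, beside 4103 and 4022 of all 7936 genes. In siRRM1 1 of the 7 fell and 1 rose, where 15.5% of all genes were called. MSMO1 (209146_at, Entrez 6307) read 9.45 and 9.40 in scramble, 9.07 and 8.83 in siRRM1, and 9.34 and 9.33 in siRRM2. The siRRM1 arrays lay below all others, while the siRRM2 difference from scramble was -0.09 (SE 0.10, limma adjusted p = 0.684). The direct comparison of the knockdowns gave -0.39 (SE 0.10, unadjusted p = 0.0062, adjusted p = 0.259), so a difference between them was not established. The siRRM1 call was lost without scramble replicate 1 (adjusted p = 0.101), scramble replicate 2 (0.0650) or siRRM1 replicate 2 (0.109), where the log2 values were -0.46, -0.50 and -0.36.

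TM7SF2 (210130_s_at, Entrez 7108) read 7.25 and 7.15 in scramble, 7.67 and 7.50 in siRRM1, and 7.67 and 7.57 in siRRM2. Every knockdown array was above both scramble arrays. The siRRM2 difference was 0.42 (SE 0.10) with a limma adjusted p of 0.0750, which missed the threshold, and the knockdowns differed by -0.04 (adjusted p = 0.936). That in siRRM1 passed narrowly, and it was lost on leaving out any single array, with log2 values of 0.30 to 0.47. The adjusted p was 0.102 and 0.146 without scramble replicate 1 or 2, and 0.118 and 0.0771 without siRRM1 replicate 1 or 2. Without either siRRM2 array it was 0.0686.

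DHCR7, which carries out the last reduction to cholesterol, read 8.06 and 8.20 in scramble, 7.81 and 7.82 in siRRM1, and 7.97 and 7.93 in siRRM2. Its differences were -0.32 (SE 0.09, limma adjusted p = 0.0531) and -0.18 (SE 0.09, adjusted p = 0.311). SC5D, the sterol desaturase one step earlier, read 8.83 and 8.81 in scramble against 8.53 and 8.52 in siRRM1 and 8.44 and 8.66 in siRRM2. That gave -0.29 and -0.27 (SE 0.10 each, adjusted p = 0.0879 and 0.193). For both genes all knockdown arrays were below both scramble arrays. NSDHL and HSD17B7, of the demethylation complex, differed by -0.03 and -0.09 in siRRM1 and by 0.04 and -0.22 in siRRM2. EBP, the sterol isomerase, differed by -0.06 and 0.02 on its brightest probe set, where the scramble arrays read 9.07 and 9.50. Another EBP probe set, 213789_at, read 8.39 and 8.37 in scramble, 7.88 and 8.08 in siRRM1 and 7.86 and 8.04 in siRRM2. Its differences of -0.40 and -0.43 had limma adjusted p = 0.0556 and 0.104 over all probe sets.

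Among the SREBP regulators INSIG2 (209566_at, Entrez 51141) read 7.81 and 8.004 in scramble, 7.50 and 6.86 in siRRM1, and 7.41 and 7.38 in siRRM2. All 4 knockdown arrays were below scramble, and the second siRRM1 array was the lowest of all. The siRRM2 difference was -0.51 (SE 0.19, limma adjusted p = 0.192). Without siRRM1 replicate 2 the siRRM1 difference was -0.40 (adjusted p = 0.126), and without siRRM1 replicate 1 it was -1.04 (adjusted p = 0.00777). The call was also lost without scramble replicate 1 (adjusted p = 0.0908), scramble replicate 2 (0.136) or either siRRM2 array (0.0617). The second siRRM1 array is also one of the pair with the wider ACTB 3′ minus 5′ gap given above, and the part of RNA quality in the INSIG2 value was not tested.

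SREBF2, which encodes the factor that drives sterol synthesis, read 6.97 and 7.18 in scramble, 7.12 and 7.32 in siRRM1, and 7.21 and 6.95 in siRRM2. Its groups overlapped, with differences of 0.14 and 0.0025 (95% intervals -0.16 to 0.44 and -0.30 to 0.30). SREBF1, whose product favours fatty acid genes, read 7.76 and 8.30 in scramble, 7.63 and 8.07 in siRRM1, and 7.97 and 8.20 in siRRM2. INSIG1 read 9.18 and 9.78, then 9.16 and 9.42, then 9.14 and 9.47. For both genes, on the probe set used, the spread within a group was larger than the differences between groups. Those were -0.18 and 0.06 for SREBF1 and -0.19 and -0.18 for INSIG1 (SE 0.21 and 0.20). On these probe sets the higher array within each group was the one labelled replicate 2. The other INSIG1 probe sets gave -0.60 and -0.39 in siRRM1 and -0.31 and -0.24 in siRRM2, with limma adjusted p of 0.0633 to 0.498. On both of them the siRRM1 arrays lay below both scramble arrays, and in siRRM2 this held for 201625_s_at only. That probe set read 7.30 and 7.86 in scramble and 7.07 and 6.90 in siRRM1, a difference larger than the spread within each group.

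**Figure D3:**
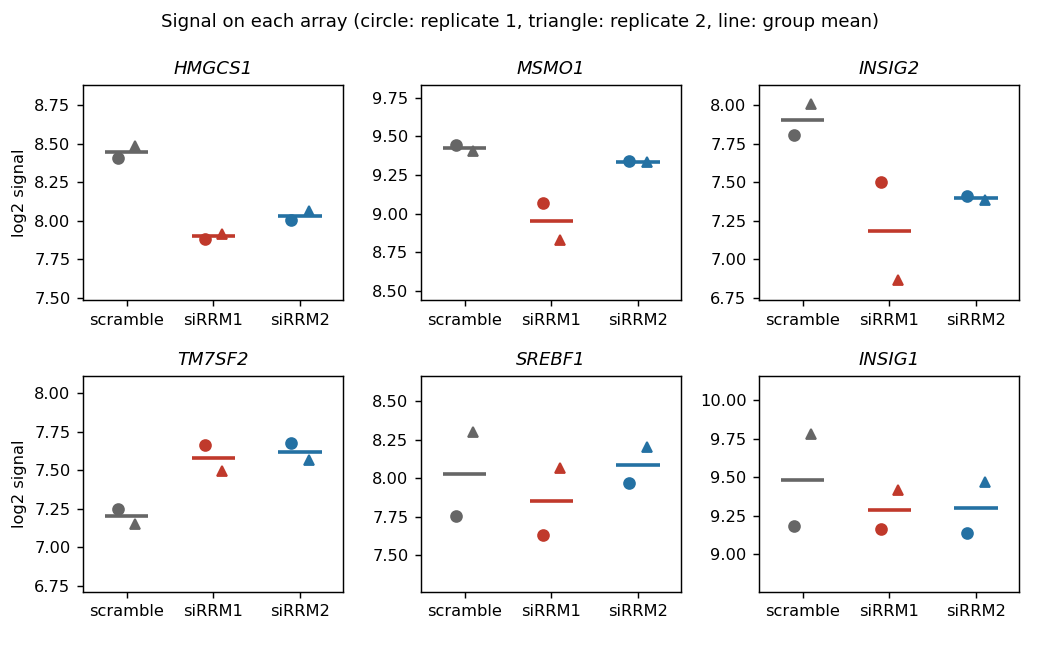
Log2 signal on each array for HMGCS1, MSMO1, INSIG2, TM7SF2, SREBF1 and INSIG1, with circles for replicate 1, triangles for replicate 2 and lines for group means, every panel spanning the same range of the log2 scale. HMGCS1 arrays of a group nearly coincide, whereas SREBF1 and INSIG1 arrays of a group lie apart, at 7.76 and 8.30 and at 9.18 and 9.78 in scramble.

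The fatty acid and lipid genes showed 0 of 7 past the limma threshold in either knockdown, where 15.5% and 2.52% of all genes were called. Of the 7, 1 and 2 had an unadjusted p under 0.05 (32.6% and 20.4% of all genes). LPIN1, a phosphatidate phosphatase on the path to triglycerides and phospholipids, read 10.10 and 9.79 in scramble, 10.33 and 10.32 in siRRM1, and 10.24 and 10.18 in siRRM2. All knockdown arrays were above both scramble arrays, by 0.38 (SE 0.12, limma adjusted p = 0.0646) and 0.26 (SE 0.12, adjusted p = 0.258). Without scramble replicate 1 the siRRM1 value was 0.54 and passed (adjusted p = 0.0405), and without scramble replicate 2 it was 0.22 (adjusted p = 0.255). Of its other probe sets, 212276_at gave 0.40 and 0.43, and 212272_at -0.04 and 0.06.

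SCD, the desaturase that makes oleate, read 9.43 and 9.63 in scramble, 9.18 and 9.37 in siRRM1, and 9.13 and 9.35 in siRRM2. Each knockdown array was below both scramble arrays, with differences of -0.25 and -0.29 (SE 0.12 each, limma adjusted p = 0.198 and 0.237). On the other SCD probe sets the siRRM1 arrays overlapped scramble, with differences of -0.21, -0.005 and -0.24. In siRRM2 these probe sets gave -0.32, -0.21 and -0.07, and only the last overlapped scramble. FASN, the fatty acid synthase, read 7.15 and 7.07 in scramble, 6.99 and 7.10 in siRRM1, and 7.36 and 7.30 in siRRM2. It was above scramble on both siRRM2 arrays (0.22, SE 0.09, adjusted p = 0.231) and not on the siRRM1 arrays (-0.06), and the knockdowns differed by -0.28 (95% interval -0.50 to -0.07, adjusted p = 0.366). Its other probe set gave the opposite sign in siRRM2 (-0.18). ACLY, which supplies cytosolic acetyl-CoA, ACACA, the carboxylase that commits it to fatty acids, ELOVL6, an elongase, and FADS2, a polyunsaturated fatty acid desaturase, had log2 differences between -0.01 and 0.18 in siRRM1. In siRRM2 they lay between -0.13 and 0.07. FADS2 had intervals of -0.30 to 0.27 and -0.31 to 0.27.

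Arrays of the 2 groups did not overlap for 15 of the 27 genes in siRRM1 against scramble. Of these 10 were lower, or 37.0% of the list, beside 30.9% of all genes, and 5 were higher (18.5% beside 28.4%). In siRRM2 against scramble 8 were lower (29.6% beside 27.7%) and 5 higher (18.5% beside 27.1%). In siRRM1 against siRRM2 7 were lower (25.9% beside 21.8%) and 5 higher (18.5% beside 18.9%). These shares of a small list were not tested against those of all genes.

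Different probe sets of a gene were compared next. There were 50 tested probe sets, and 15 genes had more than 1 of them. In siRRM1 all probe sets of a gene had the same sign for 12 of the 15, below 0 for 10 and above 0 for 2. ACACA, LPIN1 and SREBF2 were mixed. In siRRM2 the signs matched for 9 of 15, below 0 for 8 and above 0 for 1. With each probe set tested on its own, 2 of the 50 passed in siRRM1, those of HMGCS1 and MSMO1 (4%, beside 12.8% of 11800 probe sets). By limma 0 passed in siRRM2, where 1.59% of all did. There 9 of the 50 had an unadjusted p under 0.05, beside 20.4% of all genes in the fit by gene. Between the knockdowns limma called 0 of the 50, beside 0.0424% of all probe sets. Of the 50, 2 had an unadjusted p under 0.05, beside 10% of all genes in the fit by gene.

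**Figure D4:**
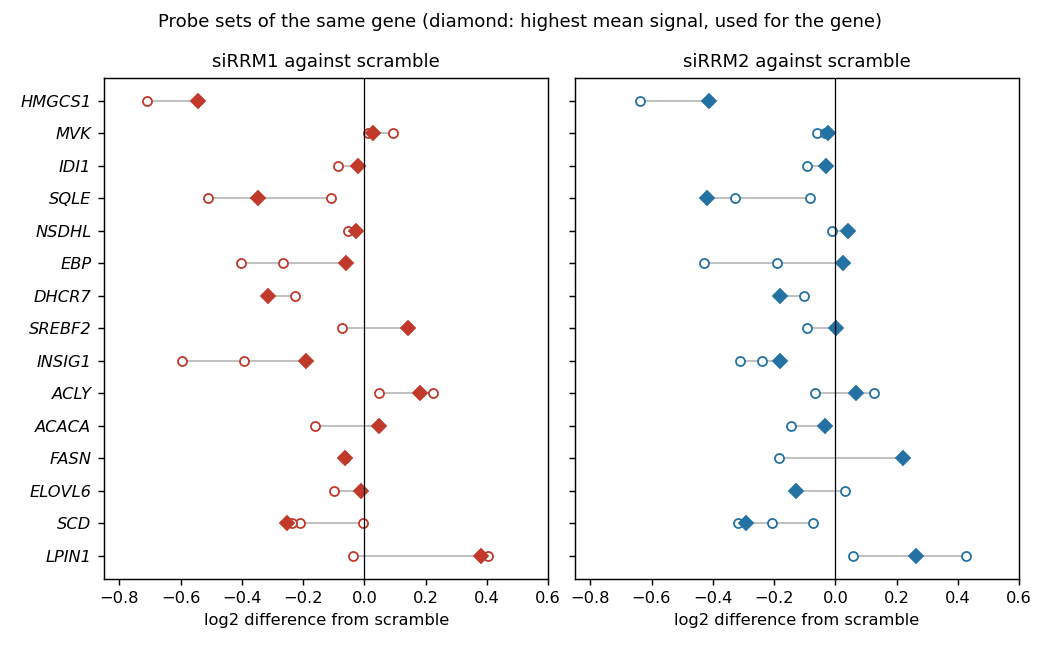
Log2 difference from scramble (horizontal axis) for each tested probe set of the 15 genes with more than 1, siRRM1 at left and siRRM2 at right, where diamonds mark the probe set used for the gene. HMGCS1, SQLE, INSIG1 and DHCR7 have every probe set below 0 in both panels, and FASN at right has probe sets on both sides of 0.

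A list of 39 further genes of sterol and lipid handling was read the same way, and 29 of them were tested. In siRRM1 2 rose and 1 fell, 10.3% beside the 15.5% of all genes, and in siRRM2 limma called 0 (2.52% of all genes), with 6 of 29 at an unadjusted p under 0.05 (20.4% of all genes). LBR, the lamin B receptor that shares the sterol reductase activity of TM7SF2, read 11.31 and 11.28 in scramble, 10.87 and 10.88 in siRRM1, and 10.95 and 10.98 in siRRM2. It fell by 0.42 in siRRM1 (SE 0.08, limma adjusted p = 0.0174), against -0.33 in siRRM2 (adjusted p = 0.0839). The LBR call was lost without scramble replicate 1 (adjusted p = 0.0858), scramble replicate 2 (0.0576) or siRRM1 replicate 2 (0.0765). LBR and TM7SF2 thus lay on opposite sides of scramble on all 4 knockdown arrays.

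NPC1 and NPC2, which export cholesterol from lysosomes, rose in siRRM1 by 0.35 and 0.38 (SE 0.09 and 0.11, limma adjusted p = 0.0330 and 0.0490). Their siRRM2 differences were 0.21 and 0.35 (adjusted p = 0.217 and 0.127). NPC1 read 7.66 and 7.74 in scramble, 8.08 and 8.03 in siRRM1, and 7.89 and 7.94 in siRRM2, and NPC2 was likewise higher on all 4 knockdown arrays. Both calls were lost on leaving out any single array, with adjusted p from 0.0650 to 0.156 for NPC1 and from 0.0651 to 0.222 for NPC2. The mean of all NPC1 probe sets gave 0.11 (adjusted p = 0.415), and the NPC1 call was also lost with each array centred on its median (adjusted p just above the threshold). That of NPC2 was lost with centring (0.0693), with no filter (0.0653) and with every probe set tested (0.0615). SCAP and the SREBP proteases MBTPS1 and MBTPS2, singled out after their values were seen, did not pass in either knockdown by limma, with 1 of 3 and 0 of 3 at an unadjusted p under 0.05 (32.6% and 20.4% of all genes). All 3 were below both scramble arrays on every knockdown array, with differences of -0.19, -0.24 and -0.24 in siRRM1 and of -0.06, -0.12 and -0.20 in siRRM2. Of all genes, 30.9% and 27.7% were lower without overlap.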

How the data were processed

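The deposited values are log2 signals of 22277 probe sets on each of 6 arrays; how the authors summarised, background-corrected and normalized them was not stated in the labels or headers. They were used without rescaling. Of the probe sets, 19070 carry 1 gene symbol in the platform annotation, 1043 several and 2164 none. Of those with 1 symbol, 19058 matched the RefSeq gene table by Entrez gene number. Each gene was read on the probe set with the highest mean, and genes at or above the 40th percentile of mean signal (log2 5.44) were tested. R 4.3.3 with limma 3.58.1 (lmFit, eBayes) was fitted to all 3 groups together over 7936 genes, with 3 residual and 4.61 prior degrees of freedom. Benjamini-Hochberg adjusted p under 0.05 was called, and intervals are 95%. A fit over 11800 probe sets tested each on its own. All 27 measured genes of the list were named, and of the 39 further genes those called in a comparison with scramble; outside this rule, SCAP, MBTPS1, MBTPS2 and CSF1R were named after their values were seen. The members and lists were chosen with earlier results of these data known, and so support nothing by their choice.

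The fit was tested on simulated data for siRRM1 against scramble over 7936 genes. It recovered 34% of changes of 0.5 and 84% of changes of 1 on the log2 scale, with 4 false calls. The simulation changed only a small share of the genes and drew independent noise for each array. In the data 15.5% of all genes were called in siRRM1, so these rates may not carry over. With 2 arrays a group, the number of arrays limits the precision. Alternatives were another centring, quantile normalization, other filters, probe set rules, a mean-variance trend, fits of 2 groups, a replicate block and each array left out. One control transcript is not reported here.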

Additional observations from a re-analysis of the deposited data

Results flagged for a closer look

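For LSS and FASN both siRRM1 arrays lay below, and both siRRM2 arrays above, the scramble mean. This opposite direction marked them. For LSS the siRRM2 arrays, at 0.034 and 0.009 from that mean, lay between the scramble arrays, at 0.042 and -0.042. For FASN the second siRRM1 array, at -0.006, likewise lay between the scramble arrays, at 0.045 and -0.045. The siRRM1 minus siRRM2 difference was -0.0896 for LSS (limma adjusted p = 0.786) and -0.284 for FASN (adjusted p = 0.366), so neither passed the test of the difference. That pattern held for 2 of the 27 genes (7.41%) and for 374 of all 7936 (4.71%). The opposite direction was that of the probe set used. On the other FASN probe set, which was tested, the siRRM1 minus siRRM2 difference was 0.12. It was 0.15 and 0.08 on the other LSS probe sets, but these did not pass the filter on low signal.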

How the results depend on the processing

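Of the list's values by gene and comparison under the alternatives, 1173 kept their side of the threshold, 20 lost a call and 19 gained one. Only the 4 genes called in the main fit, all in siRRM1, could lose a call. HMGCS1 kept it under all 15 alternatives, MSMO1 under 12, INSIG2 under 8 and TM7SF2 under 5. Of the list's values, 74 changed sign, none of them a called value. Genes higher in siRRM1 against scramble numbered 1, and 0 with centring on the median, with no filter, with every probe set tested or with only 2 groups fitted. They numbered 3 with quantile normalization, the 60th percentile filter, a mean-variance trend or the replicate block, and 0 to 1 with an array left out. Genes lower in siRRM1 numbered 3, 4 with centring, the 60th percentile filter or the replicate block (DHCR7 added), 2 with every probe set tested or only 2 groups fitted (INSIG2 lost), and 1 to 3 with an array left out. In siRRM2 against scramble, genes higher numbered 0, but 1 with the 60th percentile filter or the trend and 2 with the replicate block; genes lower numbered 0, but 1 with centring, that filter or the block. Between the knockdowns the count was 0 throughout. Over all genes, leaving out an array gave 312 to 1234 calls in siRRM1, 21 to 206 in siRRM2 and 2 to 16 between the knockdowns. The trend gave 336 in siRRM2 and 42 between the knockdowns, where the 60th percentile filter gave 4 and every probe set 5. In these fits probe sets and filter came from all 6 arrays, and a lone array was assumed to vary like the other groups. The causes were not tested. Signal over background limits dim probe sets.

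The replicate block gave 1904, 622 and 153 calls over all genes, against 1234, 200 and 13. Deviations of same-numbered arrays correlated at r = 0.382, 0.363 and 0.21 across 7936 genes, positive for each pair of groups. The labels do not say what a number marks, and with 2 numbers the main fit did not pair the arrays. Whether same-numbered arrays were handled together was not tested.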

Other observations

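The array labelled replicate 2 read higher than replicate 1 in all 3 groups for 9 of the 27 genes (33.3%), against 1502 of 7936 genes (18.9%). Replicate 1 was the higher in all 3 groups for 5 (18.5%), against 1351 (17%). The 9 genes were SCD, ACLY, FDPS, INSIG1, FADS2, SREBF1, ELOVL6, ACACA and HMGCS1. This order was that of the probe set used for each gene. On the other HMGCS1 probe set replicate 1 was the higher in all 3 groups. Both other INSIG1 probe sets had replicate 1 higher in siRRM1. The other probe sets of SCD, ACLY, ELOVL6 and ACACA also broke the order, except 200831_s_at of SCD and 201127_s_at of ACLY, which kept it. INSIG1, the SREBP target that retains SCAP, had gaps of 0.60, 0.25 and 0.33 in scramble, siRRM1 and siRRM2, and SREBF1 gaps of 0.54, 0.44 and 0.24. On the probe sets used, these gaps were for both genes at least as large as the differences between group means. For SREBF1 those differences reached -0.23 in siRRM1 against siRRM2. On the INSIG1 probe set 201625_s_at the siRRM1 difference from scramble, -0.60, was larger than the gap within each group. What the replicate numbers share was not given in the sources used here.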
